A study of Homo sapiens with 8 samples.

Results

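Interferon-stimulated genes are the genes that a cell turns on when an interferon binds its receptor. The set described here holds 45 genes of antiviral defence, interferon signalling and the ISG15 system. A gene counted as measured when the array's annotation paired a probe set with that gene and no other, and 44 of the 45 were measured, among 18417 measured genes in all. STAT2 was not analysed here. Each of the 44 genes had 1 such probe set, so no choice between probe sets was needed.

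The arrays came from HCC1937, a breast cancer cell line whose BRCA1 is truncated, and from HCC1937+BRCA1, in which exogenous wild-type BRCA1 was put into that line. COH29 inhibits ribonucleotide reductase, which converts ribonucleotides to the deoxynucleotides of DNA. Each line was measured as control and with COH29 at 10 µM for 24 h, on 2 arrays a group and 8 arrays in all. The labels give no vehicle or time for the controls and do not say whether HCC1937+BRCA1 is 1 clone or a pool, which promoter drives BRCA1, or whether the arrays within a group are from different cultures. P-values therefore measure the spread between these arrays, which may be technical. All values are the authors' normalised log2 intensities, so a difference of 1 is a 2-fold difference, and levels are compared between arrays for 1 gene. The exception is the percentiles given for markers and a few low members, which rank genes within an array and are only a rough guide to level.

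As background, type I and type III interferons bind receptors that carry the kinases JAK1 and TYK2. Signalling through them assembles ISGF3, a complex that holds STAT2 and IRF9, and ISGF3 binds the interferon-stimulated response element in the promoters of target genes. The products degrade viral RNA, block translation and viral entry, conjugate ISG15 to other proteins, and include the sensors and factors of the pathway itself. Many tumour cell lines express a part of these genes without added interferon.

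The element that ISGF3 binds lies in many of the members' promoters, and a few are printed to show it in members that differed in opposite directions between the lines. RefSeq windows (GRCh38.p14) of 300 bases, from 250 before to 50 after a listed transcription start, were found for 35 of the 44 genes. The element's core, a pair of GAAA with any 2 bases between them, searched on both strands, was present in 25 of the 35 (71.4%), against 4.12% of all 14239 genes with a window. The core of the gamma-activated site, TTCNNNGAA, was present in 10 of the 35 (28.6%), against 9.2% of all genes. Matches of the 2 cores can overlap, and a match is a description of the letters only. The 150 bases just before the listed start follow, 5′ to 3′ on the strand of the gene, with each match of the GAAA pair or its reverse complement that lies wholly within them in capitals. A further IFITM1 match runs across the listed start, and its first bases, at the end of the printed stretch, are in lower case. IFITM1 (chr11:313890-314039, plus strand), IFI27 (chr14:94110586-94110735, plus), EPSTI1 (chr13:42992242-42992391, minus), OAS3 (chr12:112938324-112938473, plus) and IFIT1 (chr10:89392473-89392622, plus) were lower in HCC1937+BRCA1. PARP12 (chr7:140062952-140063101, minus) and SAMD9 (chr7:93117980-93118129, minus) were higher there.
IFITM1: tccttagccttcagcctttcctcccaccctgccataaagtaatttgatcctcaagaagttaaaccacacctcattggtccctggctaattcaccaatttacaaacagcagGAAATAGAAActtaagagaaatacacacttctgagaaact
IFI27: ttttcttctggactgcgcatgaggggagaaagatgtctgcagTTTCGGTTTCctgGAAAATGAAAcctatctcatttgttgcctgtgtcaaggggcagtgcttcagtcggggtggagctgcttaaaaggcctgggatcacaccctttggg
EPSTI1: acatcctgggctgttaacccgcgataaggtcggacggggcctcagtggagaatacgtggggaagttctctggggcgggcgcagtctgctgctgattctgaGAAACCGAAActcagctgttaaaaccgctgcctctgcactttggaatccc
OAS3: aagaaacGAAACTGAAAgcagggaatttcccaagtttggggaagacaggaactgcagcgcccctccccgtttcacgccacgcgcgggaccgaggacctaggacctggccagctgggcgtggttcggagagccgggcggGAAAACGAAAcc
IFIT1: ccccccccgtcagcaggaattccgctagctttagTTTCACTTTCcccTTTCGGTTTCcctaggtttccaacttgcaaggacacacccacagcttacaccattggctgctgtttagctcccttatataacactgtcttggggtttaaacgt
PARP12: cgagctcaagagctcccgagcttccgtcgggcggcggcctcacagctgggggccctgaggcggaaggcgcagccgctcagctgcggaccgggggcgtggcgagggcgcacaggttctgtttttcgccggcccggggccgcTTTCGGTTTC
SAMD9: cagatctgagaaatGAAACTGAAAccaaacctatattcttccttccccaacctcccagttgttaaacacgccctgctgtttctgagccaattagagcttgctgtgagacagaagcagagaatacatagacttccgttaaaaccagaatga
PARP9 and DTX3L are head-to-head neighbours whose windows overlap, and both windows hold 1 shared match. It is shown with 10 bases on each side, at chr3:122564322-122564351, on the minus strand.
PARP9 and DTX3L: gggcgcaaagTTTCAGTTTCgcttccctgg
Read by the difference between the control lines, the core was present in 15 of the 22 lower members with a window, in 3 of the 3 higher members and in 7 of the 10 members that were not called.

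Array medians ran from 7.10 to 7.24 and arrays of a group correlated at 0.996 to 0.9974 over all genes. The probe set of BRCA1 differed between the control lines by -0.08 ± 0.10 (SE, n = 2 against 2, limma adjusted p = 0.62), so it does not check the labels of the lines, and each line difference is between arrays as labelled. Of 7 epithelial markers measured, KRT8, KRT18, CDH3 and EPCAM lay between the 97.8th and 99.8th percentile of genes on all 8 arrays. The basal markers were lower, with EGFR between the 81.4th and 90.7th, KRT5 between the 69.0th and 92.1st and KRT14 between the 60.3rd and 69.6th. Leukocyte markers ranged widely, with PTPRC between the 1.48th and 4.39th percentile, TYROBP between the 49.5th and 55.5th, CD68 between the 86.9th and 91.3rd, and CD14 between the 30.4th and 89.6th. Of 11 leukocyte markers measured, 2 were lower in HCC1937+BRCA1 controls, CD14 by -3.77 and ITGAM by -1.02, and none was higher. The mean of the 11 ran from 6.43 to 6.44 on the HCC1937 controls, from 6.45 to 6.48 with COH29, from 5.91 to 6.0 on the HCC1937+BRCA1 controls and from 6.06 to 6.07 with COH29. Of 9 fibroblast and endothelial markers, PECAM1 (-1.19) and CDH5 (-1.34) were lower in HCC1937+BRCA1 controls and none was higher. Of the 7 epithelial markers, KRT5 was lower by -1.70 and EGFR higher by 0.51, with a median of 0.14, and of 4 plasmacytoid dendritic cell markers 1 was lower and 1 higher. The lower shares were 18.2% of leukocyte, 22.2% of fibroblast and endothelial, 14.3% of epithelial and 25% of plasmacytoid dendritic cell markers, against 14.8% of all genes. Higher were 14.3% of epithelial and 25% of plasmacytoid dendritic cell markers, against 16.4% of all genes. The part of these marker differences in the results below was not tested.

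Without COH29, most interferon-stimulated genes had lower levels on the arrays labelled HCC1937+BRCA1 than on those labelled HCC1937. Of the 44 genes, 28 were lower, 3 were higher and 13 were not called by limma at an adjusted p under 0.05, adjusted over all 18417 genes. Over all genes, 14.8% were lower and 16.4% higher, against 63.6% and 6.82% of the members. The members were chosen with earlier results of these data known, so such shares describe the set and do not test it. The median difference was -0.64 for the members and -0.01 for all genes. A total of 15 members were lower by at least 1 on the log2 scale, that is by at least 2-fold, where 2.37% of all genes were. In bulk RNA, fewer expressing cells and less RNA per expressing cell cannot be told apart.

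**Figure D1:**
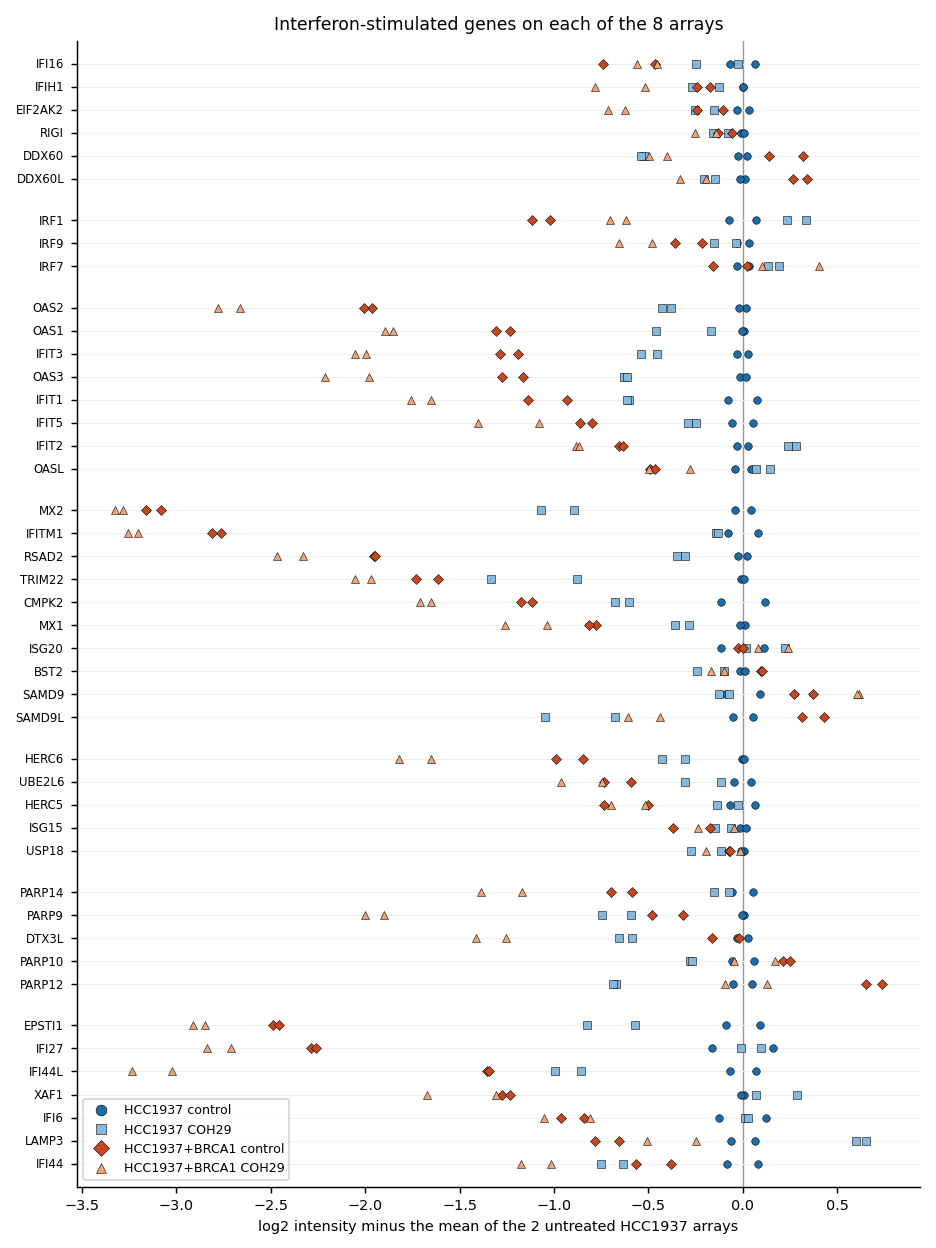
Log2 intensity on every array minus the mean of the 2 HCC1937 control arrays, for each of the 44 measured interferon-stimulated genes grouped by role, with a symbol for each of the 4 groups of 2 arrays. For MX2 the HCC1937+BRCA1 control arrays lie about -3.12 from the HCC1937 controls, while for PARP12 they lie above them, by 0.70 on average.

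The genes of the IFIT and OAS proteins were all lower: 8 of 8 were called, with a median of -1.13. OAS2, a synthetase of the 2-5A messenger that activates RNase L, read 11.09 and 11.05 on the HCC1937 controls, 10.64 and 10.69 with COH29, 9.10 and 9.06 on the HCC1937+BRCA1 controls and 8.29 and 8.40 with COH29. All 4 HCC1937 arrays were above all 4 HCC1937+BRCA1 arrays. The line difference of the controls was -1.99 ± 0.08 (SE, 3.96-fold, limma adjusted p = 3.74e-07). OAS1 read 10.68 and 10.67, then 10.22 and 10.50 with COH29, in HCC1937, and 9.36 and 9.44, then 8.82 and 8.78 with COH29, in HCC1937+BRCA1. OAS3 read 10.42 and 10.45, then 9.81 and 9.83 with COH29, in HCC1937, and 9.27 and 9.16, then 8.22 and 8.46 with COH29, in HCC1937+BRCA1. These neighbours of OAS2 on chromosome 12 had control line differences of -1.27 ± 0.10 for OAS1 and -1.22 ± 0.10 for OAS3. OASL, which lacks synthetase activity and acts through RIG-I, was lower by -0.48.

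The IFIT proteins recognise the 5′ end of foreign RNA and block its translation. IFIT3 read 8.65 and 8.71 on the HCC1937 controls, 8.22 and 8.14 with COH29, 7.49 and 7.39 on the HCC1937+BRCA1 controls and 6.62 and 6.68 with COH29. IFIT1 read 10.27 and 10.43, then 9.75 and 9.74 with COH29, in HCC1937, and 9.42 and 9.21, then 8.70 and 8.59 with COH29, in HCC1937+BRCA1. IFIT2 read 9.24 and 9.30, then 9.51 and 9.55 with COH29, in HCC1937, and 8.61 and 8.63, then 8.38 and 8.40 with COH29, in HCC1937+BRCA1. No array of 1 line overlapped an array of the other for these 3 genes. The control line differences were -1.24 ± 0.08 for IFIT3, -1.03 ± 0.10 for IFIT1, -0.64 ± 0.08 for IFIT2 and -0.83 ± 0.11 for IFIT5.

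The widest range was among the other antiviral effectors, where 6 of 10 were lower and 1 was higher, with a median of -0.97. MX2, a dynamin-like GTPase that blocks nuclear import of viral genomes, read 8.66 and 8.74 on the HCC1937 controls, 7.63 and 7.81 with COH29, 5.62 and 5.54 on the HCC1937+BRCA1 controls and 5.38 and 5.42 with COH29. Its line difference without COH29 was -3.12 ± 0.09 (8.69-fold, limma adjusted p = 6.2e-08), the largest of any member. On the HCC1937+BRCA1 controls MX2 lay between the 15.9th and 17.8th percentile of genes, TRIM22 between the 10.3rd and 12.1th and EPSTI1 between the 22.8th and 23.5th. The deposited values carry no call against background, so these 3 genes are not shown to be above it there. MX1, its neighbour on chromosome 21 with a broad action against RNA viruses, was lower by -0.80 ± 0.10. IFITM1, a membrane protein that hinders fusion of enveloped viruses, read 12.29 and 12.45 on the HCC1937 controls, 12.23 and 12.24 with COH29, 9.61 and 9.56 on the HCC1937+BRCA1 controls and 9.17 and 9.12 with COH29. Its line difference was -2.79 ± 0.09 (6.9-fold, limma adjusted p = 8.82e-08). IFITM1 has close paralogs, so signal shared between their probe sets leaves the single gene uncertain.

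RSAD2, or viperin, makes a chain-terminating nucleotide from CTP, and its neighbour CMPK2 is a mitochondrial nucleotide kinase. RSAD2 read 9.43 and 9.38, then 9.06 and 9.10 with COH29, in HCC1937, and 7.45 and 7.46, then 7.08 and 6.94 with COH29, in HCC1937+BRCA1. CMPK2 read 10.00 and 9.76, then 9.28 and 9.20 with COH29, in HCC1937, and 8.70 and 8.76, then 8.17 and 8.23 with COH29, in HCC1937+BRCA1. The control lines differed by -1.95 ± 0.08 for RSAD2 and -1.14 ± 0.10 for CMPK2. TRIM22, a ubiquitin ligase of the tripartite motif family, read 6.74 and 6.76, then 5.42 and 5.87 with COH29, in HCC1937, and 5.13 and 5.02, then 4.70 and 4.78 with COH29, in HCC1937+BRCA1. Its control line difference was -1.67 ± 0.14. SAMD9 went the other way, at 0.32 ± 0.09, while its neighbour SAMD9L, at 0.37 ± 0.13 (adjusted p = 0.0568), BST2, or tetherin, at 0.10 ± 0.09, and ISG20 did not pass the test.

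All 7 genes of the group named IFI or of less defined function were lower, with a median of -1.25. EPSTI1, named for its induction by stromal contact in breast epithelium, read 8.45 and 8.63 on the HCC1937 controls, 7.71 and 7.97 with COH29, 6.05 and 6.08 on the HCC1937+BRCA1 controls and 5.63 and 5.69 with COH29. IFI27, a mitochondrial protein, read 10.04 and 9.72, then 9.98 and 9.87 with COH29, in HCC1937, and 7.59 and 7.62, then 7.04 and 7.17 with COH29, in HCC1937+BRCA1. EPSTI1 was lower by -2.47 ± 0.11 (5.56-fold) and IFI27 by -2.27 ± 0.11 (4.84-fold). IFI44L read 10.78 and 10.92, then 9.86 and 9.99 with COH29, in HCC1937, and 9.50 and 9.51, then 7.62 and 7.83 with COH29, in HCC1937+BRCA1. XAF1, a proapoptotic partner of XIAP, read 10.55 and 10.53, then 10.61 and 10.83 with COH29, in HCC1937, and 9.26 and 9.31, then 8.87 and 9.23 with COH29, in HCC1937+BRCA1. The control line differences were -1.35 ± 0.10 for IFI44L, -1.25 ± 0.13 for XAF1, -0.90 ± 0.12 for IFI6, -0.72 ± 0.11 for LAMP3, a lysosomal membrane protein, and -0.47 ± 0.11 for IFI44.

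Of 6 sensors and signalling genes, 1 was lower and 1 higher, 16.7% each, near the 14.8% and 16.4% of all genes. IFI16, a sensor of DNA, was lower by -0.60 ± 0.12 and DDX60L was higher by 0.30 ± 0.09. The RNA sensors RIGI (-0.09 ± 0.09) and IFIH1 (-0.21 ± 0.11), the kinase EIF2AK2, or PKR (-0.17 ± 0.09), and DDX60 (0.23 ± 0.09) were not called. Among the transcription factors, IRF1, which itself activates many of these genes, read 9.72 and 9.86, then 10.03 and 10.13 with COH29, in HCC1937, and 8.67 and 8.77, then 9.09 and 9.17 with COH29, in HCC1937+BRCA1. IRF1 was lower by -1.07 ± 0.09 (2.1-fold, limma adjusted p = 3.46e-05), while IRF9, the DNA-binding part of ISGF3, differed by -0.29 ± 0.10 and did not pass the test (adjusted p = 0.0524). IRF7 was not called.

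ISG15 is a ubiquitin-like protein that UBE2L6 and HERC5 attach to other proteins and USP18 removes. ISG15 itself differed by -0.27 ± 0.10 and was not called (adjusted p = 0.0777), and neither was USP18. UBE2L6 (-0.66 ± 0.11), HERC5 (-0.62 ± 0.11) and its neighbour HERC6 were lower. HERC6 read 10.82 and 10.83, then 10.40 and 10.52 with COH29, in HCC1937, and 9.98 and 9.84, then 9.01 and 9.17 with COH29, in HCC1937+BRCA1, a control line difference of -0.92 ± 0.10.

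The ADP-ribosyltransferases split. PARP14 was lower by -0.64 ± 0.10 and PARP9, whose product forms a complex with the ubiquitin ligase DTX3L, by -0.40 ± 0.10. PARP12 was higher by 0.70 ± 0.10 (1.62-fold, limma adjusted p = 0.000621), with means of 9.75 on the HCC1937 controls and 10.44 on the HCC1937+BRCA1 controls. DTX3L and PARP10 were not called. PARP14 read 10.70 and 10.81, then 10.60 and 10.69 with COH29, in HCC1937, and 10.17 and 10.06, then 9.59 and 9.37 with COH29, in HCC1937+BRCA1.

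Some calls among the smaller line differences ended when 1 array was left out. Without HCC1937+BRCA1 control replicate 1, the calls of DDX60L (adjusted p = 0.134) and SAMD9 (0.141) ended and the count of higher members went from 3 to 1. Without HCC1937+BRCA1 control replicate 2, those of DDX60L (0.0571), IFI44 (0.0617) and PARP9 (0.0859) ended. Without HCC1937 control replicate 1, DDX60L (0.0931) and PARP9 (0.0652) were lost, and without HCC1937 control replicate 2, DDX60L (0.122), SAMD9 (0.188), IFI44 (0.0729) and PARP9 (0.0597). The other 26 lower members and PARP12 kept their calls without any 1 of the 8 arrays. Without moderation of the variances, IFI44 (0.0517) and SAMD9 (0.0504) were not called.

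Many members lie next to each other, with 11 pairs that had no RefSeq protein-coding gene between them, such as OAS1 and OAS3, MX2 and MX1, and IFI44L and IFI44. For each member, the line difference without COH29 was also taken over up to 10 measured protein-coding genes on each side that are not members. The median of these neighbours lay between -0.995 and 0.417 and was under -0.5 for 1 member only, EPSTI1, at -0.995 with 18 of 20 neighbours negative. For MX2 the neighbours' median was -0.19, for IFITM1 -0.12 and for IFI27 -0.01. The members called higher lay among neighbours with positive medians. The neighbours' median was 0.37 for SAMD9, itself at 0.32, and 0.36 for DDX60L, itself at 0.30. For PARP12, itself at 0.70, it was 0.32. Of 20 neighbours, 2 were negative for SAMD9, 4 for DDX60L and 2 for PARP12. The part of position in the line differences was not tested.

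With COH29 on both lines, the line difference covered more members. On the arrays labelled HCC1937+BRCA1 with COH29, 32 of the 44 were lower and 3 higher than on those labelled HCC1937 with COH29, where 17.4% of all genes were lower and 14.2% higher. The median was -0.87, against -0.003 for all genes, and 18 members were lower by at least 2-fold, where 2.57% of all genes were. All 28 members that were lower between the controls were lower here too, which is 100% of the 28 and 87.5% of the 32. These 2 comparisons share no array, but their variances come from the same fit over all arrays. The overlap over all genes was not computed, so these shares describe the members only. DTX3L (-0.71 ± 0.09), IRF9 (-0.48 ± 0.10), EIF2AK2 (-0.46 ± 0.09) and IFIH1 (-0.45 ± 0.11) passed the test here and not between the controls. The largest differences were those of IFITM1 (-3.09 ± 0.09, 8.52-fold), IFI27 (-2.82 ± 0.11, 7.05-fold), MX2 (-2.32 ± 0.09) and OAS2 (-2.32 ± 0.08), each with a limma adjusted p of at most 4.31e-07. PARP12 (0.70 ± 0.10), SAMD9 (0.71 ± 0.09) and PARP10 (0.34 ± 0.10) were higher. Calls were lost for IFI16, IFI44, IFIH1 and PARP10 without HCC1937 COH29 replicate 2 (adjusted p = 0.221, 0.0976, 0.0634 and 0.0801) and without HCC1937+BRCA1 COH29 replicate 2 (0.178, 0.11, 0.0667 and 0.162). PARP10 was also lost without HCC1937 COH29 replicate 1 (0.0829), and IFI16 without HCC1937+BRCA1 COH29 replicate 1 (0.0836), without either HCC1937 control (0.0583), with arrays shifted to one median (0.0613) and after cyclic loess (0.0634).

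**Figure D2:**
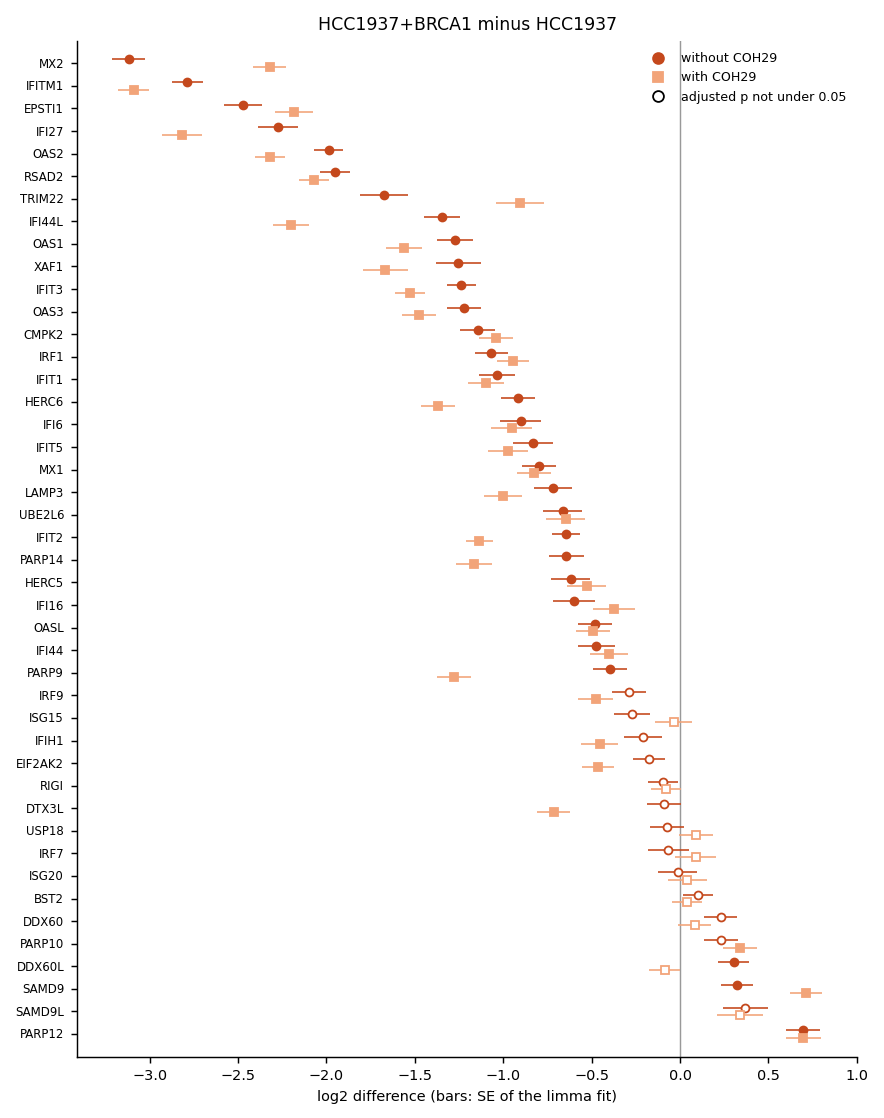
Difference in log2 intensity, HCC1937+BRCA1 minus HCC1937, for each member without and with COH29, with bars of 1 SE and filled symbols where the limma adjusted p was under 0.05. Of the 44 genes, 28 are lower without and 32 lower with COH29, and MX2, IFITM1, EPSTI1 and IFI27 are beyond -2 in both.

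The second question of the design is what COH29 did in each line. In HCC1937, members were lower with COH29 more often than genes in general: 18 of 44 were lower and 2 higher, where 12.5% of all genes were lower and 10.2% higher. The median difference was -0.21 for the members and 0.04 for all genes. TRIM22 (-1.11 ± 0.14, 2.15-fold, limma adjusted p = 0.00063) was the 1 member lower by at least 2-fold, where 0.972% of all genes were, followed by MX2 (-0.98 ± 0.09), IFI44L (-0.93 ± 0.10) and SAMD9L (-0.86 ± 0.13). The 2 COH29 arrays of TRIM22 lay farther apart than its controls, at 5.42 and 5.87, and both were below the controls. On these 2 arrays TRIM22 lay between the 13.6th and 20.2nd percentile of genes. It is not shown to be above background there, and its fold rests on that level. Some markers of other cell types were also called with COH29 in HCC1937. Of 11 leukocyte markers, CD14 (-1.13) and ITGAM (-0.37) were lower and TYROBP (0.30) was higher, with a median of 0.18, and of 4 plasmacytoid dendritic cell markers CLEC4C (0.43) was higher. Of 9 fibroblast and endothelial markers, PECAM1 (-1.95) and CDH5 (-1.28) were lower and none was higher, with a median of 0.15. Both were lower in HCC1937+BRCA1 too (-1.48 and -0.50), where 1 of the 9 was higher. The lower share of the 9 was 22.2% in each line, against 12.5% and 20.1% of all genes. In HCC1937, 18.2% of the leukocyte markers were lower and 9.09% higher, against 12.5% and 10.2% of all genes. In HCC1937+BRCA1, 1 of the 11 leukocyte markers was higher and none was lower. The part of these differences in the COH29 results was not tested.

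By role, 3 of 5 genes of the PARP and DTX3L group were lower in HCC1937. DTX3L read 11.04 and 10.98 on the HCC1937 controls, 10.35 and 10.42 with COH29, 10.99 and 10.84 on the HCC1937+BRCA1 controls and 9.75 and 9.59 with COH29. PARP9 read 9.68 and 9.66, then 8.92 and 9.08 with COH29, in HCC1937, and 9.35 and 9.19, then 7.67 and 7.77 with COH29, in HCC1937+BRCA1. In both lines the COH29 arrays of both genes lay below the controls. In HCC1937 the COH29 effect was -0.62 ± 0.09 for DTX3L, -0.67 ± 0.10 for PARP9 and -0.68 ± 0.10 for PARP12.

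Of the other groups in HCC1937, 6 of 10 antiviral effectors, 4 of 8 IFIT and OAS genes, 3 of 7 genes of the IFI group, 1 of 6 sensors (DDX60, -0.53 ± 0.09) and 1 of 5 genes of the ISG15 system (HERC6, -0.37 ± 0.10) were lower. The shares of the sensors (16.7%) and of the ISG15 system (20%) were near the 12.5% of all genes. The antiviral effectors, the IFIT and OAS genes and the IFI group had 60%, 50% and 42.9%. The IFIT and OAS genes called lower were OAS3 (-0.62 ± 0.10), IFIT1 (-0.61 ± 0.10), IFIT3 (-0.50 ± 0.08) and OAS2 (-0.40 ± 0.08), while OAS1 (-0.31 ± 0.10, adjusted p = 0.0598) did not pass the test. CMPK2 (-0.64 ± 0.10), EPSTI1 (-0.70 ± 0.11), IFI44 (-0.69 ± 0.11), RSAD2 (-0.33 ± 0.08) and MX1 (-0.32 ± 0.10) were lower too. LAMP3 (0.63 ± 0.11, adjusted p = 0.00325) and IFIT2 (0.26 ± 0.08, adjusted p = 0.0425) were higher. IFITM1 (-0.14 ± 0.09), whose line difference was among the largest, was not called for COH29 in HCC1937. Limma called none of the 3 transcription factors in HCC1937, where 1, IRF1, had an unadjusted p under 0.05 and differed by 0.28 ± 0.09 (adjusted p = 0.0554).

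In HCC1937 the calls of IFIT2 ended without any 1 of the 8 arrays (adjusted p from 0.0569 to 0.199), leaving LAMP3 as the 1 higher member, those of RSAD2 without any 1 of the 4 HCC1937 arrays (0.0524 to 0.126), and those of MX1 without any 1 of these (0.0694 to 0.163) or of the 2 HCC1937+BRCA1 controls (0.0562). HERC6 was lost without HCC1937 COH29 replicate 1 (0.128), control replicate 1 (0.103) or control replicate 2 (0.114), and OAS2 without HCC1937 control replicate 1 (0.0591). The other 14 lower members kept their calls without any 1 array.

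In HCC1937+BRCA1, 25 of 44 members were lower with COH29 and 3 higher, where 20.1% of all genes were lower and 13.6% higher. The median was -0.41 for the members and 0.04 for all genes. IFI44L (-1.78 ± 0.10, 3.44-fold, limma adjusted p = 7.9e-06), PARP9 (-1.55 ± 0.10, 2.93-fold) and DTX3L (-1.24 ± 0.09, 2.37-fold) were the 3 members lower by at least 2-fold, where 2.12% of all genes were. They were followed by SAMD9L (-0.89 ± 0.13), OAS3 (-0.88 ± 0.10), HERC6 (-0.82 ± 0.10) and IFIT3 (-0.79 ± 0.08).

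By role, 7 of 8 IFIT and OAS genes were lower in HCC1937+BRCA1, the other being OASL. Among them OAS2 differed by -0.74 ± 0.08, IFIT1 by -0.67 ± 0.10, OAS1 by -0.60 ± 0.10, IFIT5 by -0.41 ± 0.11 and IFIT2 by -0.23 ± 0.08 (adjusted p = 0.0495). Of the sensors 4 of 6 were lower, with DDX60 at -0.68 ± 0.09, DDX60L at -0.57 ± 0.09, EIF2AK2 at -0.49 ± 0.09 and IFIH1 at -0.44 ± 0.11. Of the PARP and DTX3L group 4 of 5 were lower, including PARP12 (-0.68 ± 0.10) and PARP14 (-0.64 ± 0.10). Of the IFI group 4 of 7 were lower, with IFI44 at -0.62 ± 0.11, IFI27 at -0.50 ± 0.11 and EPSTI1 at -0.41 ± 0.11 beside IFI44L. The 5 lower antiviral effectors were SAMD9L, CMPK2 (-0.54 ± 0.10), RSAD2 (-0.45 ± 0.08), IFITM1 (-0.44 ± 0.09) and MX1 (-0.35 ± 0.10). IRF1 (0.41 ± 0.09), LAMP3 (0.34 ± 0.11) and SAMD9 (0.29 ± 0.09) were higher, while TRIM22 (-0.34 ± 0.14), MX2 (-0.18 ± 0.09) and IRF9 (-0.28 ± 0.10) were not called. On the COH29 arrays of this line TRIM22 lay between the 6.94th and 7.34th percentile of genes, MX2 between the 13.4th and 13.5th and EPSTI1 between the 16.4th and 16.6th. TRIM22, MX2 and EPSTI1 are not shown to be above background there.

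In HCC1937+BRCA1, no higher member kept its call without each array in turn. The calls ended for SAMD9 without any 1 of the 4 HCC1937+BRCA1 arrays (adjusted p from 0.0687 to 0.152), for IRF1 without COH29 replicate 2 (0.055) or control replicate 1 (0.062) of this line, and for LAMP3 without these (0.215 and 0.185), without control replicate 2 (0.0535) or without either HCC1937 control (0.0503). Of the lower members, IFIT2 was lost without any 1 of the 8 arrays (0.0544 to 0.146) and EPSTI1 without any 1 of the 4 of this line (0.0545 to 0.0818). IFIT5 was lost without COH29 replicate 2 (0.132), control replicate 1 (0.104) or control replicate 2 (0.0518), MX1 without COH29 replicate 1 (0.119), control replicate 1 (0.0957) or control replicate 2 (0.0554), IFIH1 without COH29 replicate 2 (0.0763) or control replicate 1 (0.0651), and IFI27 without COH29 replicate 1 (0.0575). The other 19 lower members kept their calls without any 1 array.

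**Figure D3:**
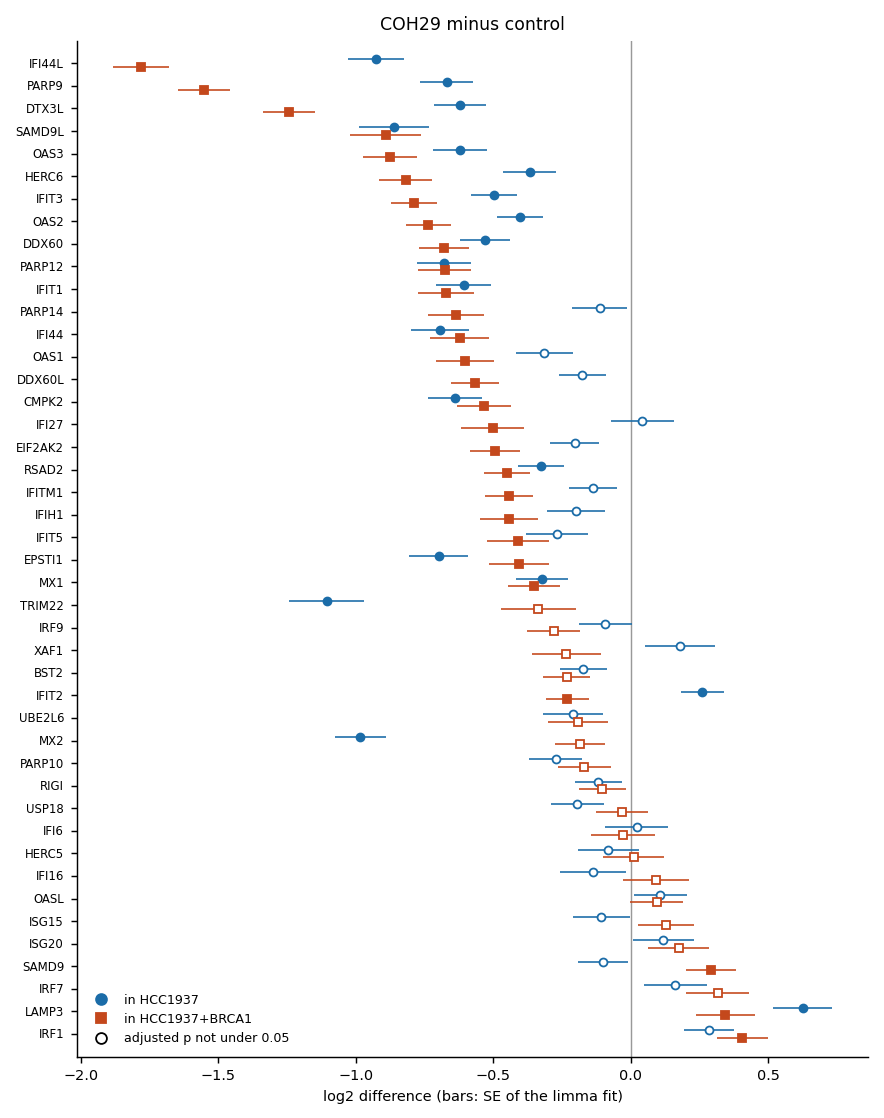
Difference in log2 intensity, COH29 minus control, for each member in HCC1937 and in HCC1937+BRCA1, with bars of 1 SE and filled symbols where the limma adjusted p was under 0.05. With COH29, 18 members are lower in HCC1937 and 25 in HCC1937+BRCA1, and IFI44L and PARP9 are lower by more in HCC1937+BRCA1 while MX2 is lower by more in HCC1937.

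The COH29 effects in the 2 lines come from separate arrays, but their variances come from the same fit over all arrays. Of the members lower with COH29, 16 were lower in both lines, which is 88.9% of the 18 in HCC1937 and 64% of the 25 in HCC1937+BRCA1. They were CMPK2, DDX60, DTX3L, EPSTI1, HERC6, IFI44, IFI44L, IFIT1, IFIT3, MX1, OAS2, OAS3, PARP12, PARP9, RSAD2 and SAMD9L. LAMP3 was higher in both. The overlap between the lines over all genes was not computed, so these shares too describe the members only. A total of 6 members, RIGI, IRF7, ISG20, BST2, ISG15 and USP18, were called in none of the comparisons. ISG15, which gives its name to the system of conjugation, differed with COH29 by -0.11 ± 0.10 in HCC1937 and 0.13 ± 0.10 in HCC1937+BRCA1.

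Whether COH29 acted differently in the 2 lines was tested as the difference of its effects, HCC1937+BRCA1 minus HCC1937. Of the 44 members, 3 were called, 2 lower and 1 higher, where 0.413% of all genes were lower and 0.543% higher. The COH29 effect was lower in HCC1937+BRCA1 for PARP9 (-0.88 ± 0.14, limma adjusted p = 0.0249) and IFI44L (-0.86 ± 0.14, adjusted p = 0.0357). It was higher for MX2 (0.80 ± 0.13, adjusted p = 0.0311), which on the HCC1937+BRCA1 controls lay between the 15.9th and 17.8th percentile of genes. MX2 is not shown to be above background in that line, and the difference of effects rests on that level. TRIM22 (0.77 ± 0.19, adjusted p = 0.122), DTX3L (-0.62 ± 0.13, adjusted p = 0.076) and IFIT2 (-0.49 ± 0.11, adjusted p = 0.0915), which was called higher in 1 line and lower in the other, did not pass the test. Each of the 3 calls ended without moderation of the variances, at adjusted p-values of 0.169 for PARP9, 0.196 for IFI44L and 0.167 for MX2, and when single arrays were left out. IFI44L was lost without any 1 of the 8 arrays (adjusted p from 0.065 to 0.141), MX2 without any 1 but HCC1937 COH29 replicate 2 (0.0785 to 0.137), and PARP9 without any 1 but HCC1937 COH29 replicate 1 and HCC1937+BRCA1 control replicate 2 (0.0806 to 0.108).

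The other genes of the pathway were read from lists of interferons, receptors, sensors, limiters, antigen presentation and further induced genes. These lists too were chosen with earlier results of these data known, so their shares are descriptions only. Of 9 interferon genes measured, IFNL1 (-1.17 ± 0.21) and IFNL2 (-0.76 ± 0.12), close paralogs of the type III family, were lower in HCC1937+BRCA1 controls and IFNE, an epithelial type I interferon, was higher (1.21 ± 0.16). That is 22.2% lower and 11.1% higher, near the 14.8% and 16.4% of all genes. IFNL1 was not called without moderation (adjusted p = 0.0573). With COH29, limma called none of the 9 in HCC1937, where 1 had an unadjusted p under 0.05. In HCC1937+BRCA1, IFNE was lower (-1.02 ± 0.16) and IFNA2 was called higher (0.40 ± 0.13), which is 11.1% each, against 20.1% and 13.6% of all genes. That IFNA2 call (adjusted p = 0.0425) ended without either HCC1937 COH29 array (0.0537), without HCC1937+BRCA1 COH29 replicate 1 (0.189) or 2 (0.0619) or control replicate 1 (0.249), and after cyclic loess (0.086).

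Of 10 genes, receptors and kinases together with the transcription factor STAT3, JAK2 was higher (0.96 ± 0.15) in HCC1937+BRCA1 controls. STAT3 (-0.71 ± 0.08) and IFNGR1 (-0.68 ± 0.09) were lower there. These shares, 20% lower and 10% higher, were near the 14.8% and 16.4% of all genes. With COH29, HCC1937 had 1 higher gene against 3 lower ones, and for HCC1937+BRCA1 the counts were 1 and 4. The higher share, 10% in each line, was near that of all genes (10.2% and 13.6%), and the lower shares were 30% and 40%, against 12.5% and 20.1%. JAK1, the kinase of both interferon receptor types, was the higher gene in both lines, at 0.50 ± 0.08 and 0.69 ± 0.08. IFNGR2, a chain of the interferon gamma receptor, was lower in HCC1937 (-0.60 ± 0.09). IFNAR1, a chain of the type I receptor, was called lower in both lines, by -0.38 ± 0.12 in HCC1937 and -0.58 ± 0.12 in HCC1937+BRCA1, and so was IFNLR1, a chain of the type III receptor, by -0.35 ± 0.09 and -0.57 ± 0.09. In HCC1937 the IFNAR1 call (adjusted p = 0.0482) ended without COH29 replicate 1 (0.253), control replicate 1 (0.13) or 2 (0.201) or either HCC1937+BRCA1 control (0.0542), with either scaling (0.0738 and 0.0588) and without moderation (0.16). There the IFNLR1 call ended without COH29 replicate 2 (0.0754) or control replicate 1 (0.137), and in HCC1937+BRCA1 the IFNAR1 call ended without moderation (0.0536).

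Of 18 genes of nucleic acid sensing, 7 were lower and 2 higher in HCC1937+BRCA1 controls, which is 38.9% and 11.1% against 14.8% and 16.4% of all genes. STING1, the adaptor of DNA sensing, was lower by -1.14 ± 0.12, DHX58, a regulator of RIG-I, by -0.84 ± 0.09, the kinase IKBKE by -0.81 ± 0.08 and the adaptor MYD88 by -0.72 ± 0.08. With COH29, 3 were lower and 2 higher in HCC1937, where IKBKE fell by 0.60 on the log2 scale, and 4 were lower and 3 higher in HCC1937+BRCA1, where TRIM25, the ubiquitin ligase of RIG-I, rose by 0.64 and MYD88 fell by 0.61. These COH29 shares, 16.7% lower and 11.1% higher in HCC1937 and 22.2% and 16.7% in HCC1937+BRCA1, lay near those of all genes (12.5% and 10.2%, and 20.1% and 13.6%). Of 12 limiters of sensing or signalling, 5 were lower and 2 higher in HCC1937+BRCA1 controls, with RNASEH2C at 0.59 ± 0.10, which is 41.7% and 16.7% against 14.8% and 16.4% of all genes. With COH29, HCC1937 had 4 lower and 2 higher and HCC1937+BRCA1 had 4 of each, that is 33.3% and 16.7%, and 33.3% and 33.3%, where all genes had 12.5% and 10.2%, and 20.1% and 13.6%. PTPN6, a phosphatase that acts on JAK signalling, was higher in both lines, at 0.71 ± 0.10 and 0.72 ± 0.10, and SOCS1, an inhibitor of the JAK kinases, in HCC1937+BRCA1 at 0.75 ± 0.12.

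Most class I antigen presentation genes were lower in HCC1937+BRCA1. Of 11 genes measured, limma called 10 lower and none higher in HCC1937+BRCA1 controls, with a median of -0.53, where 14.8% of all genes were lower. ERAP1, which trims peptides, was lower by -1.37 ± 0.09, the immunoproteasome subunits PSMB9 by -1.20 ± 0.13 and PSMB8 by -0.68 ± 0.09, and the peptide transporter TAP1 by -1.06 ± 0.09. With COH29, 3 of the 11 were lower in HCC1937 and 4 in HCC1937+BRCA1, and none was higher in either, also at an unadjusted p under 0.05. The lower genes were 27.3% and 36.4% of the list, against 12.5% and 20.1% of all genes. ERAP2 was lower by -0.51 ± 0.09 and -0.77 ± 0.09, and PSMB8 by -0.53 ± 0.09 and -0.64 ± 0.09, in the order of the lines.

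Of 42 further interferon-induced genes, 19 were lower and 5 higher in HCC1937+BRCA1 controls, with a median of -0.29. That is 45.2% and 11.9%, against 14.8% and 16.4% of all genes. IFITM2 (-1.78 ± 0.10) and IFITM3 (-1.57 ± 0.10), the paralogs of IFITM1 whose signal may be shared with it, the chemokine CCL5 (-1.33 ± 0.09) and the GTPase GBP4 (-1.30 ± 0.11) were lower. With COH29, HCC1937 had 14 lower and 3 higher, and HCC1937+BRCA1 had 17 and 4. The lower shares were 33.3% and 40.5%, against 12.5% and 20.1% of all genes, and the higher shares, 7.14% and 9.52%, were below those of all genes (10.2% and 13.6%). RTP4 was lower by -1.35 ± 0.14 in HCC1937 and -1.45 ± 0.14 in HCC1937+BRCA1, and TRIM14, an adaptor at mitochondria, by -0.86 ± 0.09 and -1.11 ± 0.09.

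**Figure D4:**
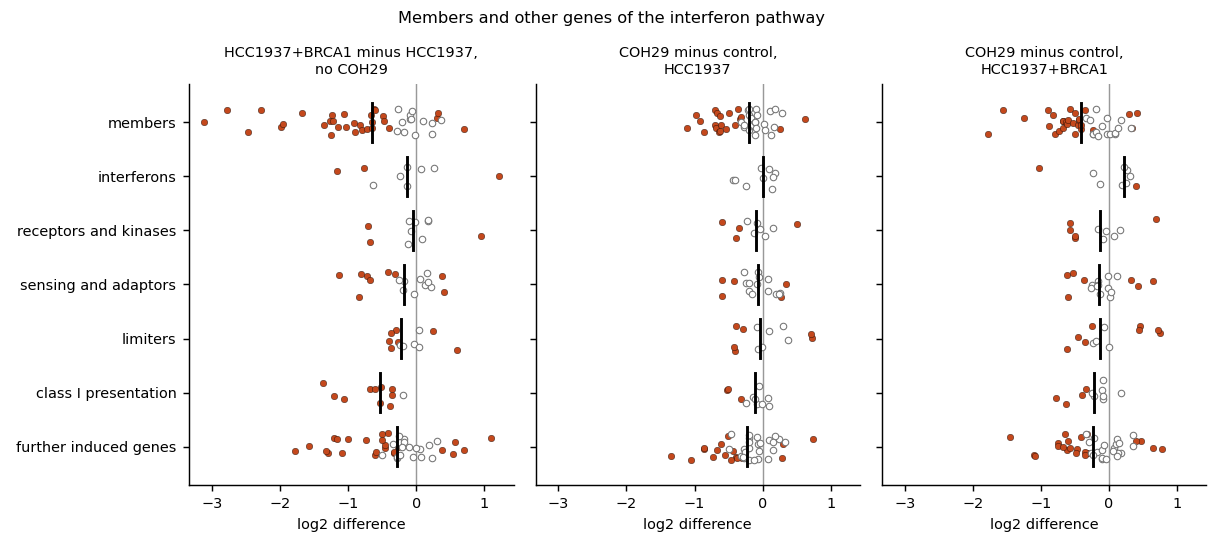
Difference in log2 intensity of each member and each measured gene of the pathway lists in 3 panels, HCC1937+BRCA1 minus HCC1937 without COH29, and COH29 minus control in each line, with filled symbols where the limma adjusted p was under 0.05 and a vertical bar at each list's median. In the first panel 10 of 11 class I genes are called and lower, with a median of -0.53, while the receptors and kinases, a list that also holds STAT3, centre near 0.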

How the data were processed

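RNA extracted with TRIzol was measured on Affymetrix arrays after one-cycle biotin labelling, per the labels' protocols. The deposited table holds the authors' log2 intensities for 33297 probe sets, normalised with RMA, and Partek is also named, per the submitters' processing notes. Versions and the genome build are not given in the sources used here. RMA makes the arrays' distributions alike, so a shift of most genes in 1 direction would be hidden. The platform annotation paired 19460 probe sets with 1 gene, 1754 with several and 12083 with none. The first kind gave 18417 genes, with the probe set of the highest mean over 8 arrays where a gene had several (769 genes). Of these IDs 19429 matched RefSeq.

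Group means were fitted with limma 3.58.1 (R 4.3.3, lmFit, contrasts.fit, eBayes) over all 8 arrays and all genes, with 4 residual degrees of freedom and Benjamini-Hochberg adjustment over all genes, and called at an adjusted p under 0.05. The median SE of a difference was 0.10, and precision is limited by how few arrays there are. On simulated data for the control line comparison of 18417 genes, 70.1% of changes of 0.5, 98.5% of 1 and 100% of 2 (log2) were called, with 15 unchanged genes called. Only 67, 67 and 66 genes were changed by these sizes, with independent noise at the fit's own spread. In the data 14.8% of genes were called lower and 16.4% higher, so the recovery may differ there. Members and lists were chosen with earlier results of these data known. Array values are given for the 20 members with the largest differences, and at most 4 called genes a pathway list are named. Replicate numbers are in the titles, and the correlation of same-numbered arrays' deviations from their group means ran from -0.204 to 0.26, so the numbers were not taken to pair arrays. Alternatives covered scaling, moderation, a filter on low levels, the block, probe set averages, the arrays in the fit and each array left out. Summaries used Python 3.11.15 with pandas 2.3.3.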

Additional observations from a re-analysis of the deposited data

Results flagged for a closer look

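The difference of the COH29 effects between the lines, tested as an interaction in limma, passed the threshold for 3 members. For PARP9 the COH29 effect was lower in HCC1937+BRCA1 than in HCC1937 by -0.88 (adjusted p = 0.0249). For IFI44L the difference of effects was -0.86 (adjusted p = 0.0357). MX2 went the other way, with 0.80 (adjusted p = 0.0311), and its COH29 effect passed the threshold in HCC1937 but not in HCC1937+BRCA1, where its level is not shown to be above background. The arrays whose removal ended these calls are named with the result.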

How the results depend on the processing

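With 2 arrays a group and 4 residual degrees of freedom, small differences are the least certain. Among 199 gene results, 3142 recomputed values kept their direction and side of the threshold, 192 lost a call, 35 gained one and 0 changed sign. The counts of lower members stayed within 1.5 times of the reported ones under every setting for the line differences and for COH29 in each line, except where a log2 difference of at least 1 was required. Requiring it gave 0 higher and 15 lower members for the line difference without COH29, 0 and 18 with COH29, 0 and 1 for COH29 in HCC1937, 0 and 3 for COH29 in HCC1937+BRCA1, and 0 and 0 for the difference of effects.

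Robust moderation with a trend gave 5 higher members without COH29 and 7 lower for the difference of effects. No moderation gave 1 higher member for COH29 in HCC1937+BRCA1, and 0 higher and 0 lower for the difference of effects. Fitting the compared arrays alone gave 1 higher member for COH29 in HCC1937 and 1 in HCC1937+BRCA1, and this fit was not run for the difference of effects, which uses all arrays. Cyclic loess gave 0 higher members for the difference of effects, and leaving out genes under the 30th percentile of mean level gave 4 lower. The causes were not tested. Scaling moved the median of all genes by less than 0.1.

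With 1 array left out, a lone array is assumed to vary like the other groups. The higher and lower counts then ran from 1 to 4 and 26 to 29 without COH29, 1 to 1 and 14 to 18 for COH29 in HCC1937, 0 to 3 and 20 to 25 in HCC1937+BRCA1, 0 to 2 and 0 to 1 for the difference of effects, and 2 to 3 and 29 to 32 with COH29.

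With the replicate block, the counts of higher and lower members were 3 and 28 without COH29, 2 and 17 for COH29 in HCC1937, 3 and 24 in HCC1937+BRCA1, 0 and 1 for the difference of effects, and 3 and 31 with COH29. The arrays share only a number. The same-number correlation between the lines' arrays was under -0.1 for 3 of the pairs of groups, so a replicate block with numbers crossed between the lines, chosen after seeing the data, was added, and it gave 4 and 29, 2 and 19, 4 and 26, 1 and 2, and 4 and 32 in the same order.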
